A study of Drosophila melanogaster with 8 samples.

Results

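The transcripts described here are listed under a CG number and were strongly lower in wing discs of BEAF-32 mutant larvae. A CG number is a systematic name of the Drosophila genome annotation, and a gene that has one can have another symbol as well. A member had a name of that kind in the authors' deposited table, a mean log2 value over the 4 mutant arrays that lay at least 2 below the mean over the 4 wildtype arrays, and no mutant array as high as any wildtype array. A difference of 2 on the log2 scale is a 4-fold difference in the array value. Of 2590 CG-numbered transcripts named in that table, 110 met these limits (4.25%), and they belong to 104 genes. Among the 1789 named transcripts with another symbol 120 did so (6.71%), and among all 16637 transcripts on the arrays 230 did so (1.38%). The members were selected on the measured mutant minus wildtype difference itself, so their differences are given as a description and carry no test.

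The mutant discs came from last-instar larvae labelled as homozygous for a BEAF-32 mutation, and the wildtype discs came from Oregon R larvae of matched age. The labels give the same strain, spelled Orgon R, for both genotypes, and the sources used here do not name the BEAF-32 allele. Each genotype had 4 one-colour Cy3 arrays whose titles carry 2 numbers, written here as 1_1, 1_2, 2_1 and 2_2, and the series describes biological and experimental replicates without saying which number marks which. Values on the mutant and wildtype arrays are listed in that order throughout, on the deposited log2 scale. Within a genotype, arrays 1_1 and 1_2 were averaged as replicate 1 and arrays 2_1 and 2_2 as replicate 2, so a mean ± SD has n = 2. The labels do not say how many mutant stocks were used. Other differences between mutant and wildtype stocks cannot be told apart from the BEAF-32 mutation.

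BEAF-32 is a DNA-binding protein of Drosophila that sits near many promoters and at chromatin boundaries, where it is known as an insulator protein. The wing imaginal disc is the epithelial sac of the larva that forms the wing and much of the thorax wall. At the end of larval life other tissues are also very active: the salivary glands make the glue that fixes the pupa, and the fat body makes storage proteins and handles lipid and sugar.

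The BEAF-32 transcript had 8.49, 8.47, 8.40 and 8.41 on the mutant arrays, against 10.09, 11.94, 10.28 and 10.15 on the wildtype arrays, a difference of -2.17. Its mutant arrays lay close together and below all wildtype arrays, among which 1_2 stood higher than the others. Of 28 wing disc genes in a fixed list, 14 were named in the table. Of these 14, 10 had means above every array median (9.36 to 9.43) in both genotypes, among them wg at 12.97 in mutant and 11.89 in wildtype, and ap at 12.92 and 13.79. The mutant means of al, en and hh (9.24, 9.32 and 8.73) lay below that level, beside wildtype means of 12.04, 10.68 and 10.002, and rn was at 10.90 in mutant and 9.43 in wildtype. The table names only transcripts that the authors list as changed at least 1.5-fold, so a gene outside it has no value here.

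Over the 110 members the difference ranged from -5.91 to -2.003, with a median of -2.5. A difference of -3 or less was seen for 28 members, of -4 or less for 11 and of -5 or less for 2. Mutant means ranged from 7.20 to 11.46 with a median of 8.60, and wildtype means from 9.59 to 13.95 with a median of 11.56. As a rank among all transcripts of the arrays, the median member stood at percentile 35.8 in mutant discs and at percentile 79.3 in wildtype discs. The lowest value on an array, which lay between 6.83 and 6.90, marks the floor of the scale. The mutant mean lay within 1 of that floor for 20 members and within 2 for 67, and for those the fold may be understated because the scale ends there. In whole discs, fewer cells of a type and less RNA per cell cannot be told apart, and this holds for every member.

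**Figure D1:**
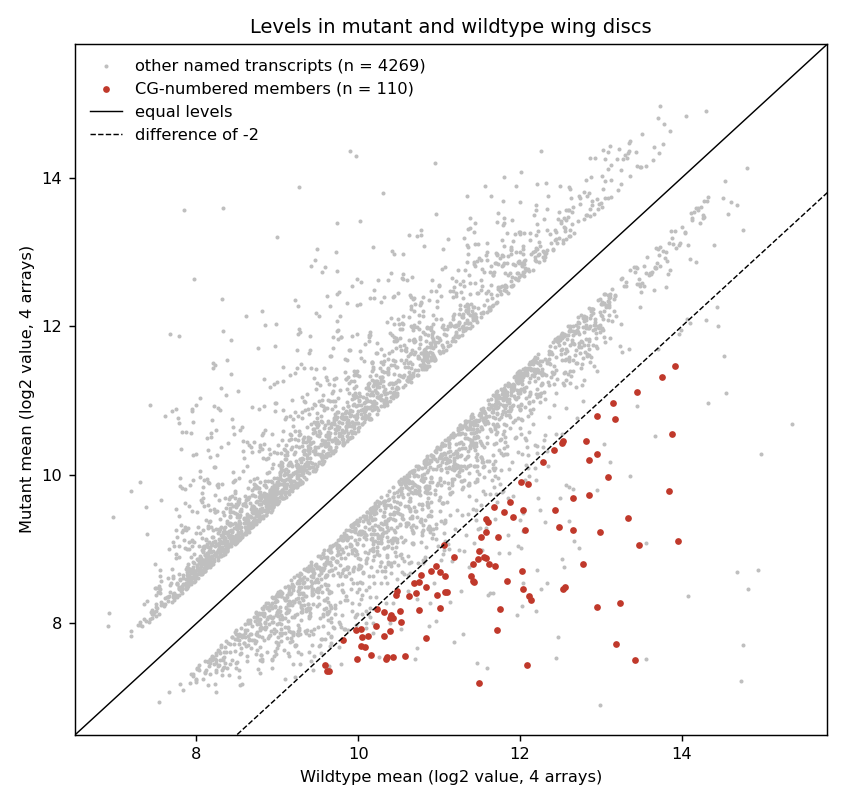
Mean log2 value over 4 mutant arrays (vertical axis) against the mean over 4 wildtype arrays (horizontal axis) for the 110 members in red and the other 4269 named transcripts in grey. The members lie on or below the dashed line of -2, with wildtype means from 9.59 to 13.95, and the empty band along the solid line is the authors' limit of 1.5-fold on the transcripts they name.

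The largest difference was that of Sgs5bis (CG7587), a relative of the salivary glue gene Sgs5. It had 7.58, 7.49, 7.45 and 7.53 on the mutant arrays, against 13.73, 13.63, 13.08 and 13.24 on the wildtype arrays, a difference of -5.91 or 60.1-fold. All 4 mutant arrays were within 1 of the floor, while wildtype arrays 1_1 and 1_2 were somewhat above 2_1 and 2_2. CG34279 contributed both of its transcripts. CG34279-PB had 7.72, 7.69, 7.76 and 7.72 on the mutant arrays, against 13.01, 13.12, 13.27 and 13.35 on the wildtype arrays, a difference of -5.47. CG34279-PA had 8.03, 7.98, 8.52 and 8.56 on the mutant arrays, against 13.07, 13.13, 13.34 and 13.41 on the wildtype arrays, a difference of -4.97. The wildtype arrays of the 2 transcripts were almost alike, and mutant replicate 2 was raised above replicate 1 for PA and not for PB.

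CG31698 had 8.95, 9.06, 9.24 and 9.21 on the mutant arrays, against 14.06, 13.96, 13.91 and 13.86 on the wildtype arrays, a difference of -4.83. CG9040 had 7.94, 7.93, 8.43 and 8.59 on the mutant arrays, against 12.76, 12.88, 12.94 and 13.21 on the wildtype arrays, a difference of -4.73. Both were high on every wildtype array and low on every mutant array. Mutant replicate 1 minus replicate 2 was -0.57 for CG9040, a larger step than the -0.22 of CG31698. CG14265 had 7.43, 7.34, 7.48 and 7.48 on the mutant arrays, against 12.93, 12.98, 11.21 and 11.24 on the wildtype arrays, a difference of -4.65. Here the wildtype arrays fell into 2 levels, with 1_1 and 1_2 the higher, and the mutant arrays were uniformly near the floor. CG12310 had 7.93, 7.88, 10.34 and 10.07 on the mutant arrays, against 13.54, 13.41, 13.44 and 13.52 on the wildtype arrays, a difference of -4.42. It showed the opposite arrangement, with wildtype arrays alike and mutant arrays 2_1 and 2_2 well above 1_1 and 1_2.

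CG9682 had 7.19, 7.10, 7.23 and 7.28 on the mutant arrays, against 11.43, 11.50, 11.45 and 11.58 on the wildtype arrays, a difference of -4.29. It had the lowest mutant mean of all members, 7.20. CG15404 had 9.96, 9.89, 9.72 and 9.55 on the mutant arrays, against 13.73, 13.96, 13.85 and 13.84 on the wildtype arrays, a difference of -4.07. CG31775 had 8.30, 8.33, 8.74 and 8.61 on the mutant arrays, against 12.42, 12.39, 12.64 and 12.78 on the wildtype arrays, a difference of -4.06. CG15404 kept a moderate level in the mutant, whereas CG31775 did not. CG9416 had 8.36, 8.43, 8.55 and 8.53 on the mutant arrays, against 12.52, 12.46, 12.58 and 12.54 on the wildtype arrays, a difference of -4.06. CG12715, the last of the 12 largest, had 9.09, 9.09, 8.51 and 8.51 on the mutant arrays, against 12.81, 12.83, 12.68 and 12.79 on the wildtype arrays, a difference of -3.98. For both, the arrays of a genotype stayed within a narrow range beside the distance between genotypes. No role is given here for these genes apart from Sgs5bis.

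**Figure D2:**
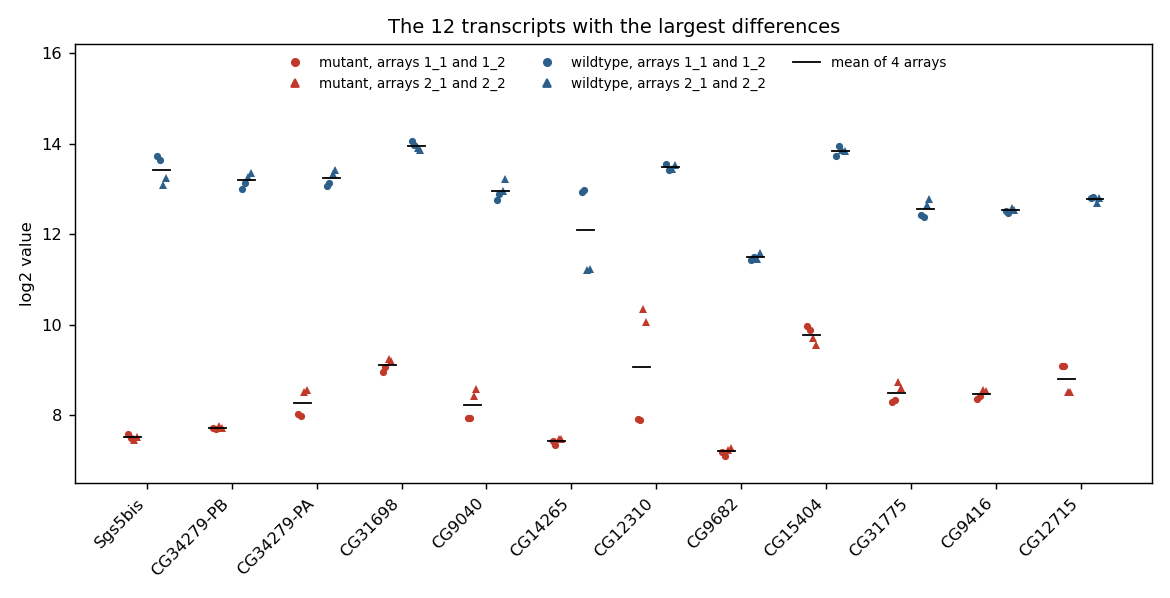
Log2 value on each array for the 12 transcripts with the largest differences, mutant arrays in red to the left of wildtype arrays in blue, circles for arrays 1_1 and 1_2, triangles for 2_1 and 2_2, and a line at the mean of 4 arrays. Wildtype means of these transcripts lie between 11.49 and 13.95 and mutant means between 7.20 and 9.78, with CG14265 split between wildtype replicates and CG12310 between mutant replicates.

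Of the 6 members with the highest wildtype means, CG31698 (13.95), CG15404 (13.84) and CG12310 (13.48) are among the 12 above. The others were asRNA:CR11538 at 13.91, CG2233 at 13.88 and CG7953 at 13.75. CG2233 had 9.05, 9.16, 12.07 and 11.93 on the mutant arrays, against 13.74, 13.68, 14.07 and 14.03 on the wildtype arrays, a difference of -3.33. Its 2 mutant replicates were far apart, with replicate 2 much nearer to the wildtype arrays. CG7953 had 10.86, 10.94, 12.004 and 11.46 on the mutant arrays, against 13.62, 13.60, 13.95 and 13.83 on the wildtype arrays, a difference of -2.43. It kept one of the highest mutant levels of the set.

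The largest family among the members was that of the sperm leucyl aminopeptidases, peptidase-like proteins that are abundant in Drosophila sperm. S-Lap1, S-Lap2, S-Lap3, S-Lap4, S-Lap7, S-Lap8 and loopin-1 were all members, with differences of -3.77 to -2.58. S-Lap1 (CG6372) had 9.30, 9.15, 9.24 and 9.21 on the mutant arrays, against 13.23, 13.23, 12.81 and 12.70 on the wildtype arrays, a difference of -3.77. S-Lap4 (CG32064) had 8.65, 8.40, 8.32 and 8.48 on the mutant arrays, against 12.25, 12.31, 11.82 and 11.75 on the wildtype arrays, a difference of -3.57. In both, wildtype arrays 1_1 and 1_2 were the highest and the mutant arrays were close to each other. S-Lap8 (CG4439) had 8.50, 8.50, 8.70 and 8.57 on the mutant arrays, against 12.24, 12.12, 11.57 and 11.42 on the wildtype arrays, a difference of -3.27. S-Lap3 (CG32063) had 9.32, 9.30, 9.33 and 9.25 on the mutant arrays, against 12.82, 12.69, 12.24 and 12.17 on the wildtype arrays, a difference of -3.18. The mutant level of S-Lap3 was the highest of the family and that of S-Lap8 was lower. loopin-1 (CG4750) had 8.61, 8.67, 8.38 and 8.56 on the mutant arrays, against 11.71, 11.71, 11.26 and 11.06 on the wildtype arrays, a difference of -2.88. S-Lap2 (CG32351) had 8.27, 8.19, 8.13 and 8.22 on the mutant arrays, against 11.16, 11.22, 10.84 and 10.79 on the wildtype arrays, a difference of -2.80. Both again had wildtype replicate 1 above replicate 2. S-Lap7 (CG13340) had 7.68, 7.58, 7.49 and 7.54 on the mutant arrays, against 10.81, 10.76, 9.71 and 9.34 on the wildtype arrays, a difference of -2.58, and its wildtype arrays spread most.

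Wildtype replicate 1 was above replicate 2 in 7 of these 7 genes, by 0.38 to 1.26, while the mutant replicates differed by -0.13 to 0.17 (replicate 1 minus replicate 2). A further gene of the family, S-Lap5, is no member, and it had means of 8.44 ± 0.02 in mutant and 9.03 ± 0.24 in wildtype, a difference of -0.59. The family is made of similar genes, and the sources used here do not give whether the probes of one can bind the transcript of another. Of 24 further genes of testis and male germline fixed in a list, 11 were named. In the limma fit with Benjamini-Hochberg adjustment, 6 of the 11 were lower and 0 higher, beside 4.46% of 16108 features lower and 2.79% higher, and 18.7% and 11.7% of the 3850 named genes. All 11 had a difference below 0, with a median of -1.25. Their summed level, as log2 of the sum of linear values, was 13.46 to 13.58 on the mutant arrays and 14.74 to 14.96 on the wildtype arrays. Those of the sperm chromatin protein gene Mst77F and the testis tubulin gene betaTub85D differed most, at -2.79 (adjusted p = 0.017) and -2.61 (adjusted p = 0.013). Whether male discs or male tissue had a different share in the samples of the 2 genotypes was not tested.

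**Figure D3:**
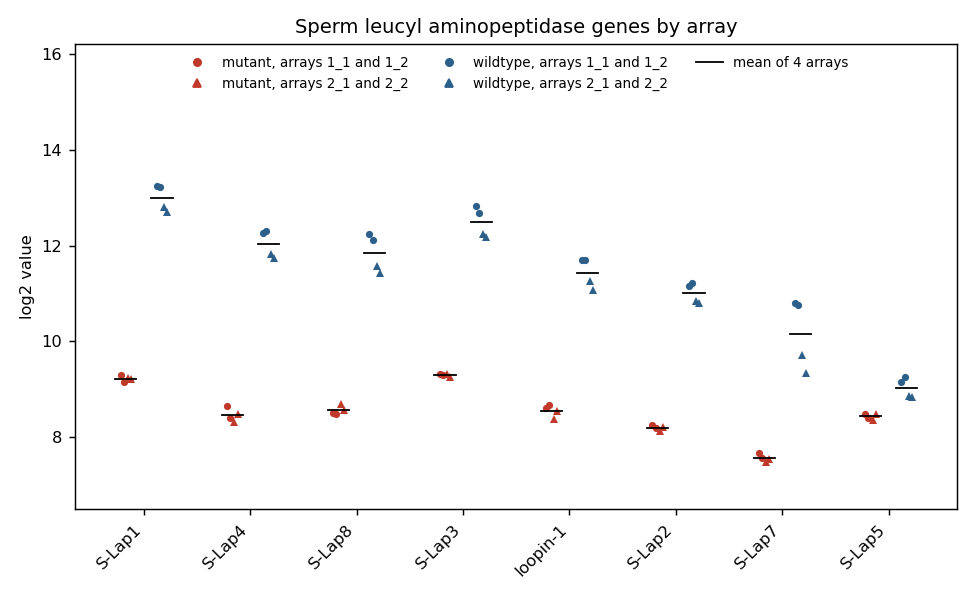
Log2 value on each array for the 7 member genes of the sperm leucyl aminopeptidase family and for S-Lap5, which is no member, with mutant arrays in red to the left of wildtype arrays in blue and a line at each mean. In each member wildtype arrays 1_1 and 1_2 (circles) lie above 2_1 and 2_2 (triangles) while mutant arrays lie together, and S-Lap5 has means of 8.44 in mutant and 9.03 in wildtype.

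Another 2 members were grouped here under the male germline. mil (CG5017), a member of the nucleosome assembly protein family, had 7.80, 7.71, 7.76 and 8.05 on the mutant arrays, against 10.34, 10.45, 9.79 and 9.90 on the wildtype arrays, a difference of -2.29. Mst77Y-16Psi (CG40530) is listed as a pseudogene on the Y chromosome and is a relative of Mst77F. It had 8.80, 8.53, 9.12 and 9.15 on the mutant arrays, against 10.65, 10.89, 11.53 and 11.65 on the wildtype arrays, a difference of -2.28. Unlike the sperm leucyl aminopeptidases, it was higher in wildtype replicate 2 than in replicate 1. The Y chromosome carries near-identical copies of this sequence, so its value cannot be ascribed to 1 copy. Mst77F itself had 8.82, 8.56, 9.12 and 9.30 on the mutant arrays, against 11.53, 11.57, 11.86 and 12.002 on the wildtype arrays. Its wildtype replicate 2 was also the higher. Whether the probes of one bind the transcript of the other is not given, so the 2 values may not be separate measurements.

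Glue and mucin genes, which encode secreted and heavily glycosylated proteins, gave 4 members. Beside Sgs5bis, Muc68Ca (CG18331) had 8.57, 8.41, 11.01 and 10.78 on the mutant arrays, against 13.45, 13.54, 11.81 and 11.84 on the wildtype arrays, a difference of -2.97. Its replicates disagreed in both genotypes, with replicate 2 the higher in mutant and replicate 1 the higher in wildtype. Mur29B (CG31901), a mucin-related gene, had 7.75, 7.63, 9.22 and 9.10 on the mutant arrays, against 10.75, 10.66, 11.56 and 11.42 on the wildtype arrays, a difference of -2.67. Muc68E (CG33265) had 8.19, 8.10, 8.29 and 8.21 on the mutant arrays, against 10.22, 10.29, 10.23 and 10.21 on the wildtype arrays, a difference of -2.04. Replicate 2 was the higher in both genotypes for Mur29B, and Muc68E was even within each genotype. Of the 16 salivary gland genes in a fixed list, Sgs5bis is a member and 12 others were named. In the mutant, 12 of these 12 were lower (beside 18.7% of all named genes), with a median difference of -4.79. Their summed level was 13.61 to 13.82 on the mutant arrays and 17.66 to 17.80 on the wildtype arrays. Whether salivary gland tissue had a part in the glue values was not tested.

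The fat body is linked to the non-coding member asRNA:CR11538 (CG11538), which lies next to Lsp2, a gene for a larval serum storage protein, and is annotated as an antisense RNA. It had 10.42, 10.32, 12.66 and 12.47 on the mutant arrays, against 13.77, 13.76, 14.07 and 14.04 on the wildtype arrays, a difference of -2.45. Lsp2 itself had 11.13, 10.85, 13.01 and 13.03 on the mutant arrays, against 14.34, 14.39, 14.61 and 14.48 on the wildtype arrays, a difference of -2.45 that did not pass (adjusted p = 0.13). In both, mutant arrays 2_1 and 2_2 were about 2 above 1_1 and 1_2, and the wildtype arrays were alike. The sources used here do not give the strand that the probes read, and signal of the 2 transcripts cannot be told apart. Of 13 fat body genes in a fixed list, 11 were named, with a median difference of -2.92. Of these 11, 6 were lower (54.5%, beside 18.7% of all named genes) and 0 higher, beside 11.7%. A difference below 0 was seen for 10 of the 11. The other, FASN1, had means of 13.22 ± 0.02 in mutant and 10.73 ± 1.20 in wildtype. Its difference of 2.49 did not pass (limma, adjusted p = 0.09). Mutant replicate 2 was above replicate 1 in 10 of the 11. Their summed level was 14.24 to 15.49 on the mutant arrays and 17.32 to 17.36 on the wildtype arrays, and the part of fat body tissue in the values of the members was not tested.

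The remaining non-coding members are lncRNA:CR32652 (CG32652) and hpRNA:CR32207 (CG32207), the second a hairpin RNA, a class that can give rise to small interfering RNAs. lncRNA:CR32652 had 7.68, 7.61, 7.67 and 7.77 on the mutant arrays, against 10.41, 10.68, 9.40 and 9.87 on the wildtype arrays, a difference of -2.40. hpRNA:CR32207 had 11.04, 11.01, 11.21 and 11.17 on the mutant arrays, against 13.38, 13.20, 13.60 and 13.59 on the wildtype arrays, a difference of -2.33. The hairpin RNA was well above the array medians in both genotypes, whereas the long non-coding RNA was low in the mutant.

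Proteases and a protease inhibitor formed a group of 4. Spn100A (CG1342), of the serpin family of serine protease inhibitors, had 9.33, 9.19, 9.49 and 9.65 on the mutant arrays, against 13.17, 13.39, 13.44 and 13.37 on the wildtype arrays, a difference of -3.92. Nepl3 (CG31918), of the neprilysin-like metallopeptidases, had 9.28, 9.20, 9.47 and 9.68 on the mutant arrays, against 11.56, 11.59, 11.62 and 11.57 on the wildtype arrays, a difference of -2.17. The arrays of each genotype were close together for both. The serine protease gene CG4914 had means of 10.20 ± 0.13 in mutant and 12.85 ± 0.00 in wildtype. CG11912, of the same protease class, had 7.58, 7.55, 7.57 and 7.55 on the mutant arrays, against 11.92, 11.60, 9.54 and 9.27 on the wildtype arrays, a difference of -3.02. For CG11912, wildtype arrays 2_1 and 2_2 were far below 1_1 and 1_2, while its mutant arrays were even and near the floor. Of 38 gut genes in a fixed list, most of them digestive proteases, 17 were named, 3 were lower (17.6%, near the 18.7% of all named genes), 0 were higher and 14 had a difference below 0. Wildtype replicate 1 was above replicate 2 in 8 of the 17, with gaps (replicate 1 minus replicate 2) that reached 3.89 for Jon25Biii and -1.25 for alphaTry.

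Enzymes of metabolism were the next group. CG6287, the fly counterpart of 3-phosphoglycerate dehydrogenase, which opens the synthesis of serine, had means of 8.32 ± 0.12 in mutant and 12.13 ± 0.06 in wildtype, a difference of -3.81. CG11899, the counterpart of phosphoserine aminotransferase, the next enzyme of that route, had means of 10.96 ± 0.37 in mutant and 13.14 ± 0.00 in wildtype, a difference of -2.18. Both enzymes of the route named here were thus members, one with a low and one with a moderate mutant level.

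Mcad (CG12262), the medium-chain acyl-CoA dehydrogenase of fatty acid oxidation, had 10.43, 10.41, 10.46 and 10.42 on the mutant arrays, against 12.52, 12.59, 12.49 and 12.46 on the wildtype arrays, a difference of -2.08. pdgy (CG9009), an acyl-CoA synthetase, had 8.18, 8.26, 7.91 and 7.95 on the mutant arrays, against 10.82, 10.74, 10.13 and 10.04 on the wildtype arrays, a difference of -2.36. Fatp3 (CG3394), of the fatty acid transport protein family, had 10.17, 10.002, 10.31 and 10.22 on the mutant arrays, against 12.05, 12.11, 12.58 and 12.39 on the wildtype arrays, a difference of -2.11. Mcad and Fatp3 stayed above the array medians in the mutant, and pdgy did not. CG9577, of the enoyl-CoA hydratase family, had means of 7.92 ± 0.05 in mutant and 9.97 ± 0.32 in wildtype. CG5171, of the trehalose-6-phosphate phosphatase family of sugar metabolism, had 9.37 ± 0.05 in mutant and 11.61 ± 0.51 in wildtype. CG31075, an aldehyde dehydrogenase family member, had 10.79 ± 0.73 in mutant and 12.96 ± 0.01 in wildtype, with mutant replicate 1 above replicate 2 by 1.03. CG8745, of an aminotransferase family, had 7.90 ± 0.01 in mutant and 10.39 ± 0.45 in wildtype.

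LManII (CG6206), a lysosomal mannosidase that trims sugar chains, had 9.29, 9.10, 9.76 and 9.96 on the mutant arrays, against 12.52, 12.67, 12.24 and 12.28 on the wildtype arrays, a difference of -2.90. Ostgamma (CG7830), a subunit of the complex that adds such chains to proteins, had 10.42, 10.44, 10.47 and 10.49 on the mutant arrays, against 12.55, 12.55, 12.54 and 12.50 on the wildtype arrays, a difference of -2.08. Ostgamma was the more even of the 2 across arrays and had the higher mutant level. St2 (CG16733), a sulfotransferase, had 7.83, 7.74, 7.83 and 7.81 on the mutant arrays, against 10.92, 10.96, 10.80 and 10.66 on the wildtype arrays, a difference of -3.04. Ugt36D1 (CG17323), a UDP-glycosyltransferase, had 7.69, 7.63, 7.46 and 7.42 on the mutant arrays, against 10.55, 10.42, 10.30 and 10.42 on the wildtype arrays, a difference of -2.87. Both were low on all mutant arrays. Over the 11 genes described from Mcad to Ugt36D1 the difference ranged from -3.04 (St2) to -2.06 (CG9577).

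Genes of the membrane, transport and signalling gave 8 members with differences of -2.77 to -2.10. NimC2 (CG18146), of the Nimrod family of blood cell receptors, had 8.43, 8.52, 8.89 and 8.69 on the mutant arrays, against 11.36, 11.25, 11.63 and 11.35 on the wildtype arrays, a difference of -2.77. The fixed list of 16 haemocyte genes holds NimC2 too, and 8 others were named, which lay on the other side. Of these 8, 5 were higher in the mutant (62.5%, beside 11.7% of all named genes) and 0 were lower, beside 18.7%. Their median difference was 1.98. NimC1, for example, had a difference of 2.47 (limma, adjusted p = 0.036). Prip (CG7777), an aquaporin water channel, had 9.002, 8.91, 8.75 and 8.83 on the mutant arrays, against 11.62, 11.90, 11.38 and 11.41 on the wildtype arrays, a difference of -2.70. Its arrays lay close together in each genotype. neo (CG7802), which encodes a zona pellucida domain protein of the epithelial surface, had 9.70, 9.64, 9.42 and 9.48 on the mutant arrays, against 11.78, 11.75, 11.66 and 11.54 on the wildtype arrays, a difference of -2.12. GILT2 (CG10157), of a family of lysosomal thiol reductases, had 7.90, 7.85, 7.95 and 8.01 on the mutant arrays, against 9.62, 9.62, 10.36 and 10.52 on the wildtype arrays, a difference of -2.10. GILT2 was the lower of the 2 in both genotypes, and its wildtype replicate 2 was above replicate 1. CG4928, CG16727 and CG5958, which belong to the UNC93-like, organic cation transporter and CRAL-TRIO families, had differences of -2.65, -2.51 and -2.51.

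Other members with a known product were Syp and Zasp66. Syp (CG17838), an RNA-binding protein, was a member through its transcript CG17838-PC, which had 9.16, 9.10, 9.95 and 9.78 on the mutant arrays, against 12.15, 12.21, 11.39 and 11.45 on the wildtype arrays, a difference of -2.30. The other 3 named transcripts of Syp were higher in level, with wildtype means of 13.60 to 14.33, and had differences of -0.91 to -0.59. Zasp66 (CG6416), a protein of the muscle Z-disc, had 9.93, 10.06, 9.62 and 9.88 on the mutant arrays, against 11.84, 11.72, 12.47 and 12.37 on the wildtype arrays for its transcript CG6416-PH, a difference of -2.22. Its other 3 named transcripts had differences of -1.95 to -1.48. In the muscle list of 20 genes, 7 were named, with a median difference of -0.94. Of these 7, 3 were lower (42.9%, beside 18.7% of all named genes) and 0 higher, beside 11.7%. A difference below 0 was seen for 5 of the 7. The others were sls at 1.61 and Zasp52 at 0.60, which did not pass. vrs (CG5538), for which no role is given here, had 8.58, 8.36, 8.39 and 8.65 on the mutant arrays, against 11.24, 10.99, 10.63 and 10.47 on the wildtype arrays, a difference of -2.34. CG4502, of the ubiquitin-conjugating enzymes, CG8031, the counterpart of human MEMO1, and CG11892, of the ecdysteroid kinase-like family, had differences of -2.57, -2.35 and -2.25.

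Transcripts of 1 gene could also be compared where the table names several. CG15109 had 3 member transcripts, CG15109-PC, CG15109-PA and CG15109-PB, with differences of -2.82, -2.81 and -2.47 and mutant means of 7.52 to 7.54. CG4836 had members at -3.32 (PB) and -2.41 (PA), CG32447 at -2.82 (PB) and -2.08 (PA), and CG9133 at -2.58 (PD) and -2.43 (PB). Transcripts of a gene may share probes, so they are not separate measurements. In all, 9 named transcripts of 5 member genes lay outside the limit. They included those of Syp and Zasp66 with CG2127-PA (-0.76) and CG31948-PA (-1.79). All 9 were lower in the mutant with no overlap between genotypes. Of all transcripts, 24.4% had every mutant array below every wildtype array, but that share is over an unlike set. The 9 belong to genes chosen on this same difference and are named in a table limited to 1.5-fold changes. Their direction is therefore only a description.

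Apart from vrs, no role is given here for 57 genes with 63 member transcripts. Beyond those with values on every array, 7 had a difference of -3 or less: CG12699, CG3124, CG15905, CG34166, CG4836, CG32198 and CG5758, at -3.80 to -3.11. Another 9 lay between -2.92 and -2.52, namely CG31496, CG32447, CG15109, CG7290, CG10918, CG31210, CG3213, CG9133 and CG31740. The last 21 lay between -2.49 and -2.003. They were CG10252, CG8664, CG1273, CG33346, CG4586, CG8100, CG32373, CG12493, CG17217, CG8565, CG5770, CG31948, CG40626, CG5089, CG33340, CG4691, CG3823, CG31538, CG10912, CG31778 and CG14540. CG31210 and CG40626 matched no gene of the RefSeq table (assembly Release 6 plus ISO1 MT). Of the 104 genes, 33 now have a symbol other than the CG number and 71 do not.

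The members just inside the limit were CG14540 at -2.003, CG31778 at -2.03 and CG12860 at -2.04. Just outside it were Gbs-70E (CG9238) at -1.99, CG31076 at -1.97 and Ypel (CG15309) at -1.97. CG31789 (-2.26) and CG12934 (-2.10) met the limit on the difference but had a mutant array above a wildtype array, in each case with mutant replicate 2 far above mutant replicate 1.

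By position, 102 of the 104 genes could be placed on a chromosome arm. Arm 2L held 25 of them (24.5%, beside 19.9% of the named genes), 2R 17 (16.7%, beside 19.9%), 3L 22 (21.6%, beside 19.9%), 3R 22 (21.6%, beside 23.7%), X 15 (14.7%, beside 15.5%), Y 1 and the fourth chromosome 0. In the RefSeq gene order, 13 members stood directly next to another member, in 6 runs. CG31698 and CG15404 on 2L, both described above, were neighbours and among the 12 largest. Also on 2L, CG8997, CG7916 and CG7953 stood in a row. CG8997 had 10.24, 10.11, 10.55 and 10.45 on the mutant arrays, against 12.38, 12.36, 12.51 and 12.45 on the wildtype arrays, a difference of -2.09. CG7916 had 8.53, 8.60, 8.50 and 8.54 on the mutant arrays, against 10.61, 10.67, 10.72 and 10.78 on the wildtype arrays, a difference of -2.15. With CG7953 they span a wide range of levels and a narrow range of differences. On 2R, CG2127-PB had 8.78, 8.78, 8.82 and 8.84 on the mutant arrays, against 11.68, 11.61, 11.22 and 11.15 on the wildtype arrays, a difference of -2.61. Its neighbour CG8701 had 7.69, 7.57, 7.69 and 7.83 on the mutant arrays, against 10.42, 10.57, 9.64 and 9.52 on the wildtype arrays, a difference of -2.34. Wildtype replicate 1 was above replicate 2 in both. CG12861, also on 2R, had 8.90, 8.87, 8.83 and 8.85 on the mutant arrays, against 11.70, 11.64, 11.36 and 11.21 on the wildtype arrays, a difference of -2.62. Next to it, CG12860 had 8.43, 8.36, 8.48 and 8.49 on the mutant arrays, against 10.76, 10.47, 10.42 and 10.26 on the wildtype arrays, a difference of -2.04. These also shared a small excess in wildtype replicate 1.

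S-Lap1 and S-Lap2 were neighbours on 3L, and S-Lap3 and S-Lap4 on 3L, like S-Lap8 and loopin-1 on 2R, had 2 genes between them. On X, CG12115 had 8.33, 8.33, 8.70 and 8.89 on the mutant arrays, against 11.18, 11.16, 11.69 and 11.63 on the wildtype arrays, a difference of -2.85. Its neighbour CG12057 had 8.18, 8.04, 10.63 and 10.91 on the mutant arrays, against 11.86, 11.76, 11.97 and 12.07 on the wildtype arrays, a difference of -2.48. The neighbours differed within the mutant: CG12057 was far higher in replicate 2 than in replicate 1, and for CG12115 that step was far smaller.

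Genes directly beside a member, themselves no members, numbered 189, and 42 were named in the table. Of these 42, 13 were lower in the mutant in the limma fit (31%, beside 18.7% of all named genes) and 4 were higher, beside 11.7%. A difference below 0 was seen for 24 of them (57.1%, beside 49.6% of named genes). Their median difference was -0.67, beside 0.59 over named genes. The authors' limit leaves an empty band around 0, and these medians fall on either side of it. The distance between them therefore does not measure the size of a shift. The table holds only genes that differed by the authors' limit, so these shares describe named neighbours. Without mutant replicate 1 the fit made 0 calls among all features (at an unadjusted p under 0.05 there were 2022), and 2 of the 42 neighbours were lower and 0 higher in a fit that lacked mutant replicate 2.

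The glue gene Sgs5, beside Sgs5bis, had means of 7.23 ± 0.06 in mutant and 14.73 ± 0.04 in wildtype, a difference of -7.50 (adjusted p = 0.0028). The gene for the fat body receptor Fbp1, beside CG8100, had means of 8.72 ± 0.16 in mutant and 14.94 ± 0.13 in wildtype, a difference of -6.21 (adjusted p = 0.0033). CtsK1 beside CG9040 had a difference of -3.38 (adjusted p = 0.0062), and ng2, a salivary gland gene beside CG14265, one of -2.62 (adjusted p = 0.017). In the first 2 of these pairs the neighbour differed by more than the member did, and in the last 2 by less. LManI, beside its relative LManII, had a difference of -1.26 (adjusted p = 0.019), and knon beside S-Lap8 one of -1.35 (adjusted p = 0.016). Neighbours that were higher in the mutant were CG8303 beside CG5089 at 2.65 (adjusted p = 0.0089), Targ beside CG12860 at 1.88 (adjusted p = 0.03), Adgf-E beside CG12861 at 1.26 (adjusted p = 0.026) and CG15894 beside CG3823 at 0.86 (adjusted p = 0.047). Members thus had named neighbours that differed in either direction.

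**Figure D4:**
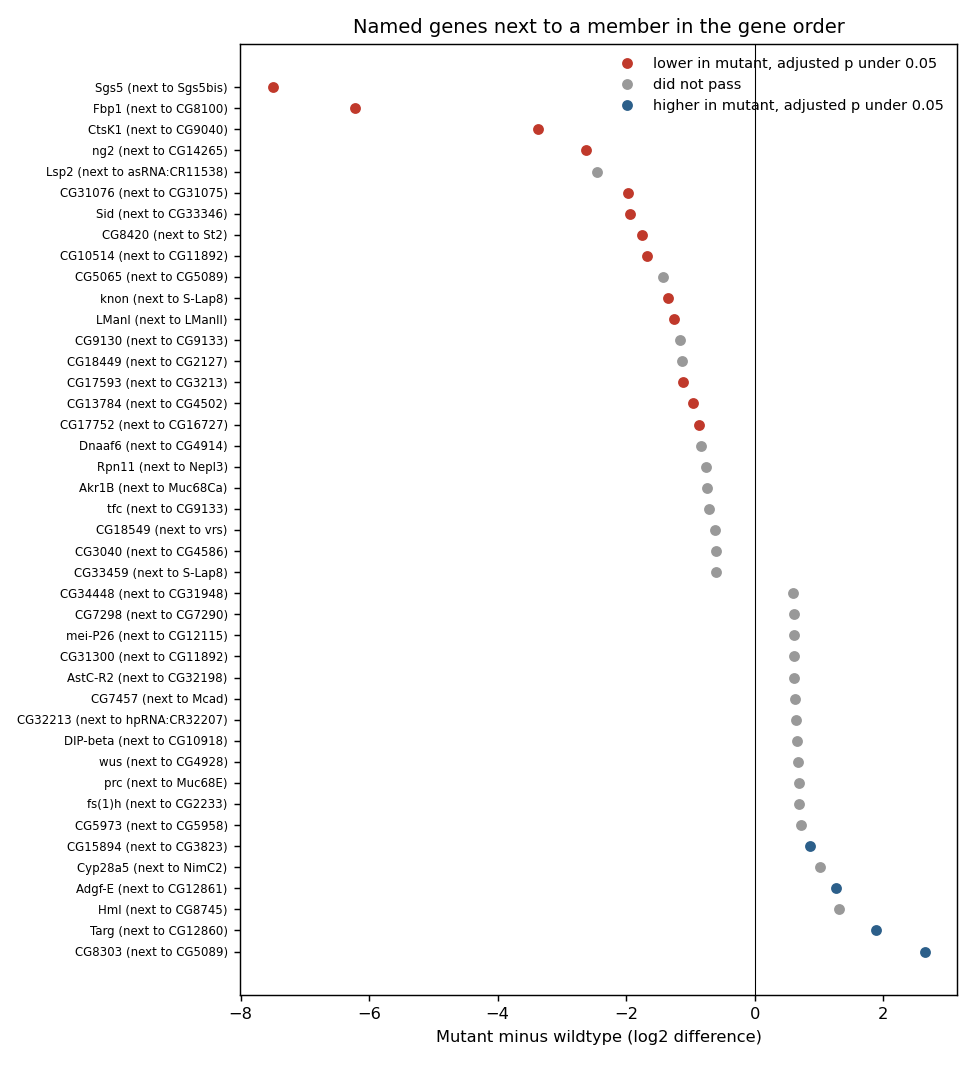
Mutant minus wildtype log2 difference of the 42 named genes that stand directly next to a member and are no members, ordered by difference, in red where lower in the mutant at an adjusted p under 0.05 (13), in blue where higher (4) and in grey where neither. The differences run from -7.50 for Sgs5 to 2.65 for CG8303, and the empty band around 0 is the authors' limit of 1.5-fold on the genes they name.

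The replicates within a genotype are a measure that the limits did not use directly, although the rule on overlap bounds them. In wildtype discs, replicate 1 was above replicate 2 by 0.5 or more for 37 members (33.6%, beside 11.8% of all transcripts), and replicate 2 above replicate 1 by as much for 12 (10.9%, beside 12.5%). Every member had a wildtype mean of 9.59 or more, whereas the median over all transcripts was 9.39, so the sets are unlike in level. Transcripts of 1 gene are counted separately in these shares. The largest gaps toward replicate 1 were those of CG11912 (2.35), CG14265 (1.73) and Muc68Ca (1.67), and the largest toward replicate 2 those of CG33346 (-1.55) and CG10912 (-1.48). Of the transcripts with another symbol that met the same limits, 32.5% also had wildtype replicate 1 above replicate 2 by 0.5 or more, so this share was not confined to CG-numbered ones. In mutant discs, replicate 2 was above replicate 1 by 0.5 or more for 16 members (14.5%, beside 2.33% of all transcripts), and by 2 or more for 6 (5.45%, beside 0.21%). The 6 were CG34166, CG2233, CG12057, Muc68Ca, CG12310 and asRNA:CR11538. Among the transcripts with another symbol that met the same limits, these shares were 12.5% and 3.33%. The mutant gaps were thus not confined to CG-numbered transcripts either. CG34166 had 7.80, 7.82, 10.79 and 10.64 on the mutant arrays, against 12.41, 12.33, 12.90 and 12.998 on the wildtype arrays, so that its mutant replicate 2 lay closer to the wildtype arrays than to mutant replicate 1. The widest mutant gap toward replicate 1 was that of CG7290, which had 10.23, 10.06, 8.30 and 8.44 on the mutant arrays, against 12.70, 12.59, 11.49 and 11.45 on the wildtype arrays. Its wildtype replicates were ordered the same way, while its neighbour CG7298, which is no member, had a mutant gap of -3.23, with replicate 2 the higher. Over settings that leave out 1 replicate, the differences of single members ranged from -6.17 to -1.15, where the rule on overlap fixes the sign.

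**Figure D5:**
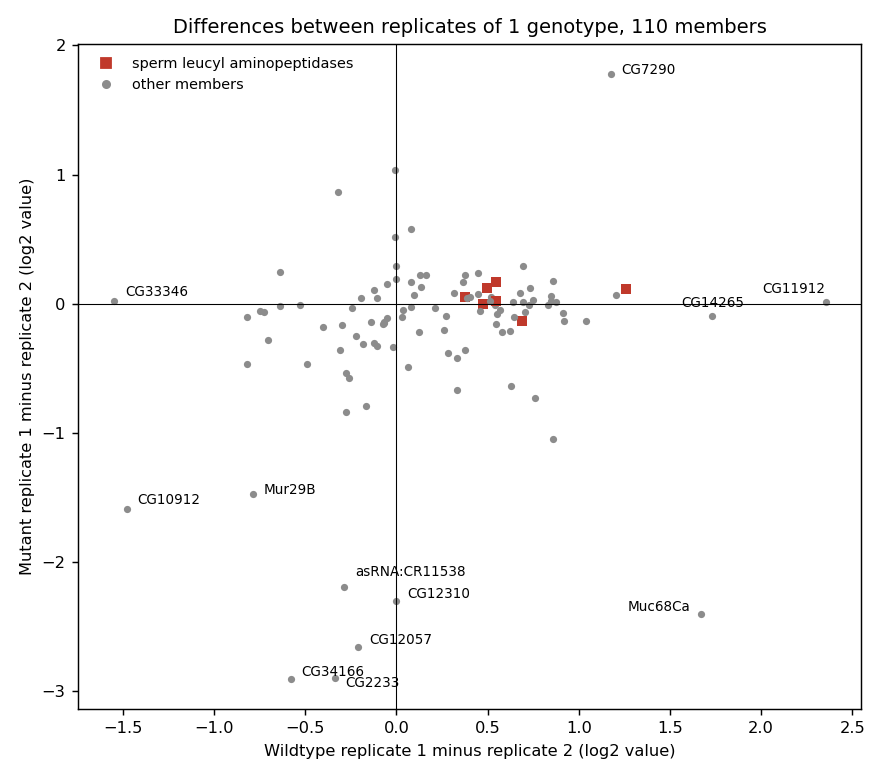
Replicate 1 minus replicate 2 in the mutant (vertical axis) against the same in wildtype (horizontal axis), in log2 units, for the 110 members, with the sperm leucyl aminopeptidases as red squares and the members with the widest gaps named. The sperm leucyl aminopeptidases lie at 0.38 to 1.26 on the wildtype axis and near 0 on the mutant axis, and 6 members lie below -2 on the mutant axis.

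In the 4 fixed lists whose counts are not yet given, trachea had 8 of 11 genes named. Of these, 5 were higher (62.5%) and 2 lower (25%), with a median of 1.11. Ecdysone and moulting had 22 of 38 named, with 5 higher (22.7%), 8 lower (36.4%) and a median of -0.68. Of 13 neural genes, 3 were named and 0 passed, with a median of -0.66. Of the 14 named wing disc genes 2 were higher (14.3%) and 5 lower (35.7%), with a median of -0.96. Among all named genes, 11.7% were higher and 18.7% lower in the same fit. Over the 10 lists, 45 genes were lower and 17 higher. Without mutant replicate 1 these counts were 0 and 0, and without mutant replicate 2 they were 9 and 1.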

How the data were processed

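Wing disc RNA was measured on 8 one-colour NimbleGen arrays. The authors' deposited values are log2 levels, 1 for each transcript on each array. RMA, which corrects background, equalises arrays and summarises probes, and Partek are named per the submitters' processing notes, without versions. The sources used here state neither probe design nor genome build. The authors' deposited table, with a linear ratio of wildtype over mutant, lists transcripts changed at least 1.5-fold. It served to name transcripts, and so set which could be members and which genes were counted as named. The number of arrays limits the precision.

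Members were found on the 8 arrays by the limits stated above. CG numbers were matched to RefSeq genes (assembly Release 6 plus ISO1 MT), 104 member transcripts by CG number and 4 by CR number. That table gave names, chromosome arms and the gene order. Arrays sharing the first title number were averaged, and limma 3.58.1 in R 4.3.3 (lmFit, eBayes, genotype only) tested mutant minus wildtype over all 16108 features, calling an adjusted p (Benjamini-Hochberg) under 0.05. For a named gene with several transcripts, the one with the highest mean was used, and likewise where a list gene had several identifiers in the file. "Lower" and "higher" in counts of a list or of neighbours mean that a gene passed. The fit was tested on simulated data. Nothing in the labels places the replicates in separate animals, and p-values therefore measure spread among these samples only, which may be technical.

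The members and the gene lists were chosen with earlier results of these data known. Values on every array are given for the 12 largest differences, the 6 highest wildtype means, members whose current symbol is no CG number and members next to another member, except 1 member that is not reported here. CG34166, CG7290, CG11912 and the genes outside the set were named after their values were seen. Alternatives covered the averaging, the replicate block, normalization, low values, the limits and left-out replicates. Promoters and proteins were not analysed here. Figures were drawn with matplotlib 3.10.9 in Python 3.11.15.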

Additional observations from a re-analysis of the deposited data

How the results depend on the processing

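The set depended most on its limit, with 215 members at -1.5 and 55 at -2.5. Under the median in place of the mean, no rule on overlap, quantile normalization, and 1 transcript per gene (the last chosen after seeing the data) it had 99 to 112 members, and without 1 replicate 107 to 135. Of the 110 members, 91 remained without wildtype replicate 1, 97 without mutant replicate 1, 100 without wildtype replicate 2 and 104 without mutant replicate 2. Under quantile normalization 1 member difference moved beyond the replicate spread. The rule on overlap fixes the sign when a replicate is left out.

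The calls depended on which arrays count as replicates, since arrays sharing a first number correlate (consensus correlation 0.842). Features lower numbered 719 and features higher 450. With 8 arrays as separate samples these counts were 3691 and 3935, with a random block for that number 1881 and 1446, and with arrays of the same second number averaged 5472 and 6893. List genes lower numbered 45 and higher 17, against 78 and 30 with 8 arrays, 74 lower under the random block, and 82 and 31 with the second number averaged. Neighbours lower numbered 13 and higher 4, against 24 and 13, 22 and 9, and 24 and 18 under the same settings. Without 1 replicate, features lower ranged from 0 to 2380, features higher from 0 to 2476, list genes lower from 0 to 68, list genes higher from 0 to 25, neighbours lower from 0 to 20 and neighbours higher from 0 to 8. The 0 calls were those without mutant replicate 1, where 2022 features had an unadjusted p under 0.05, and for neighbours higher also those without mutant replicate 2, where 2083 did. These fits have fewer samples. With the first number as a replicate block across genotypes, 1036 features were lower and 736 higher, and 20 neighbours were lower. The labels do not say that the number pairs samples. Across features, the replicate gaps of the 2 genotypes had a correlation of 0.307, which rests on only 2 replicates per genotype. The cause of the other shifts was not tested. The planned search of promoters and proteins was not run. Only the floor of the values marks the background, since signals per probe are not used here.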
